A study of Mus musculus with 10 samples.

Results

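The 37 genes described here encode subunits of the receptors for glutamate, GABA and glycine, and they were taken by symbol from the 53974 genes of the RNA-seq table. All 37 symbols were found. They comprise 16 ionotropic glutamate receptor genes, 6 metabotropic glutamate receptor genes, 11 GABA receptor genes and 4 glycine receptor genes. Regions of the ATAC-seq comparison, 12 of 16600, were added where they lay within 1000 bp of either end of a member gene. The libraries came from mouse retina (C57BL/6, 8 to 10 weeks by the labels) dissociated 3 days after optic nerve crush (ONC) and sorted on Thy1.2, a surface protein of retinal ganglion cells (RGCs), with 4 to 5 retinas pooled per sample. Every mouse carried floxed *Arid1a* (Arid1a fl/fl). AAV2 under a CMV promoter, which is not specific to a cell type, had been injected into the vitreous 2 weeks before ONC. The group WT received AAV2-GFP and was thus also floxed, and the group cKO (Arid1a del/del by the labels) received AAV2-Cre. There were 3 RNA-seq libraries and 2 ATAC-seq libraries for each label, with no uninjured group.

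Fast excitation in the retina runs through AMPA, kainate and NMDA receptors, which are tetramers of related subunits that open a cation channel when glutamate binds. Photoreceptors release glutamate onto bipolar cells, bipolar cells release it onto amacrine cells and RGCs, and the metabotropic receptors modulate these synapses through G proteins. Inhibition comes mostly from amacrine cells, which release GABA or glycine onto pentameric chloride channels, and from the G protein coupled GABA-B receptor. Each retinal neuron uses its own set of subunits, so the subunit RNA of a mixed sample depends on which neurons it holds.

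The labelled cell type and target were checked before the receptors were compared. RNA values are TPM, transcript abundance per length scaled to nearly the same sum in each library, and sequencing depth is not given. *Arid1a* RNA stood at 18.8, 11.7 and 14.1 TPM in WT replicates 1 to 3, against 18.8, 27.9 and 25 TPM in cKO replicates 1 to 3 (log2 fold change 0.66 ± 0.28 (SE), limma adjusted p = 0.274). RNA of the target was thus not lower in the libraries labelled cKO. TPM per gene in a mixed sample cannot show whether *Arid1a* was deleted in RGCs, and deletion was not tested here. From immunostaining, the paper reports less protein of the target in RGCs after injection of the Cre virus. Below, WT and cKO stand for the libraries so labelled. A list of 14 RGC markers summed to between 126 and 176 TPM in the WT libraries and between 168 and 212 TPM in the cKO libraries. The largest part of each sum was *Thy1*, the gene of the protein sorted on, except in WT replicate 2, where *Gap43* stood higher at 67.9 TPM. *Thy1* had 88.5, 51.9 and 62.7 TPM in WT replicates 1 to 3 and 106, 94.4 and 129 TPM in cKO replicates 1 to 3. Of the 11 RGC markers tested, 7 had a log2 fold change above 0, beside 61.1% of all genes tested. *Pou4f2*, a transcription factor that defines RGCs, was listed at 0 in 5 of the 6 libraries, and *Slc17a6*, the vesicular glutamate transporter of RGCs, lay between 0.593 and 1.57 TPM. The 14 rod markers summed to 14263 to 19659 TPM under WT and 29310 to 53750 TPM under cKO, with 14 of 14 higher. RNA of other retinal neurons was therefore abundant in every library. By immunostaining, the paper found nearly all sorted cells positive for Tuj1. In such bulk samples, fewer cells of a type and less RNA per cell cannot be told apart.

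**Figure D1:**
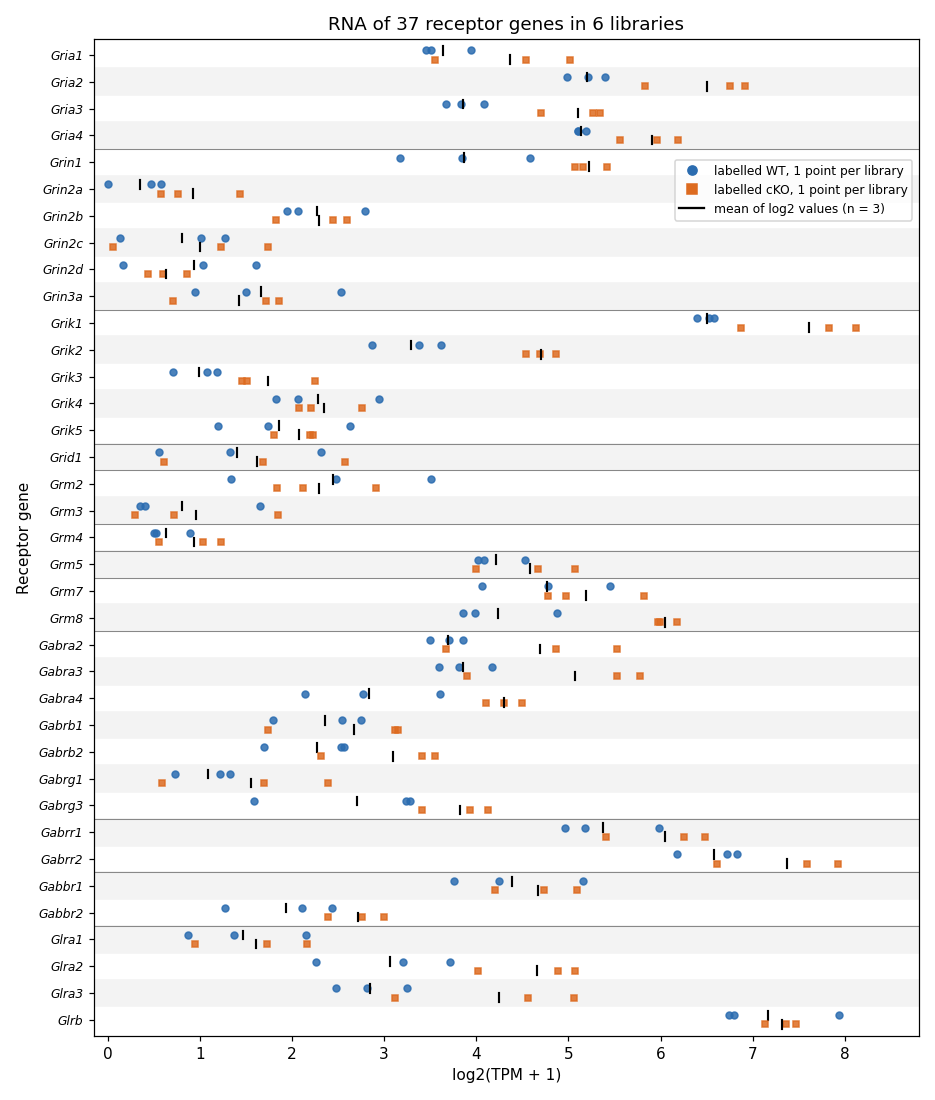
Level of each of the 37 receptor genes as log2(TPM + 1) on the horizontal axis, in the 3 libraries labelled WT (circles) and the 3 labelled cKO (squares), with black ticks for the mean of each group and lines between receptor families. *Grik1*, *Gabrr2* and *Glrb* stand at the right in both groups, and in 12 genes every square lies to the right of every circle.

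Receptor RNA was mostly higher in the libraries labelled cKO. Of the 37 genes, 33 had at least 1 TPM in at least 3 of the 6 libraries and were tested, and 31 of the 33 had a log2 fold change above 0, beside 61.1% of the 17555 genes tested. At an adjusted p under 0.05 from limma, 0 of the 33 were higher and 0 lower, beside 1 higher gene (0.0057%) and 0 lower genes (0%) among all tested. At an unadjusted p under 0.05 from limma, 11 were higher (beside 11.9% of all genes) and 0 were lower (beside 6.45%). In 11 of the 33, the lowest cKO library exceeded the highest WT library, beside 18.7% of all genes, and in 0 the order was the opposite, beside 7.18%. The median log2 fold change of the 33 was 0.74, where the median of all genes tested was 0.16. Scaling the libraries by the median of ratios moved the median of all genes to 0.01 and that of the 33 to 0.60, where 28 of the 33 were above 0 (beside 50.8% of all genes). On that scaling 9 were higher at an unadjusted p under 0.05 (beside 7.62%) and 0 lower (beside 9.54%), and 9 did not overlap upward (beside 12.5%) and 0 downward (beside 11.2%). With replicate numbers as a block, 15 were higher at that level (beside 13.4%). The 4 genes that were not tested are described with their families.

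The excess was uneven among libraries. The library labelled cKO replicate 3 held the lowest of the 3 cKO values in 28 of the 33 genes, and WT replicate 2 held the highest of the 3 WT values in 18. Without cKO replicate 3, 17 genes had an unadjusted p under 0.05 (beside 13.5% of all genes) and the groups did not overlap in 22 (beside 29.4%). Without WT replicate 2 these counts were 13 (beside 11.7%) and 16 (beside 28%). In cKO replicate 3 the bipolar and amacrine marker lists were also the lowest of the cKO group, at 1458 and 1025 TPM against 2366 and 1937 TPM in cKO replicate 1. The same library had the highest rod, cone and glial sums of the cKO group, at 53750, 6185 and 25246 TPM, and the part of these lists in the receptor values was not tested.

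**Figure D2:**
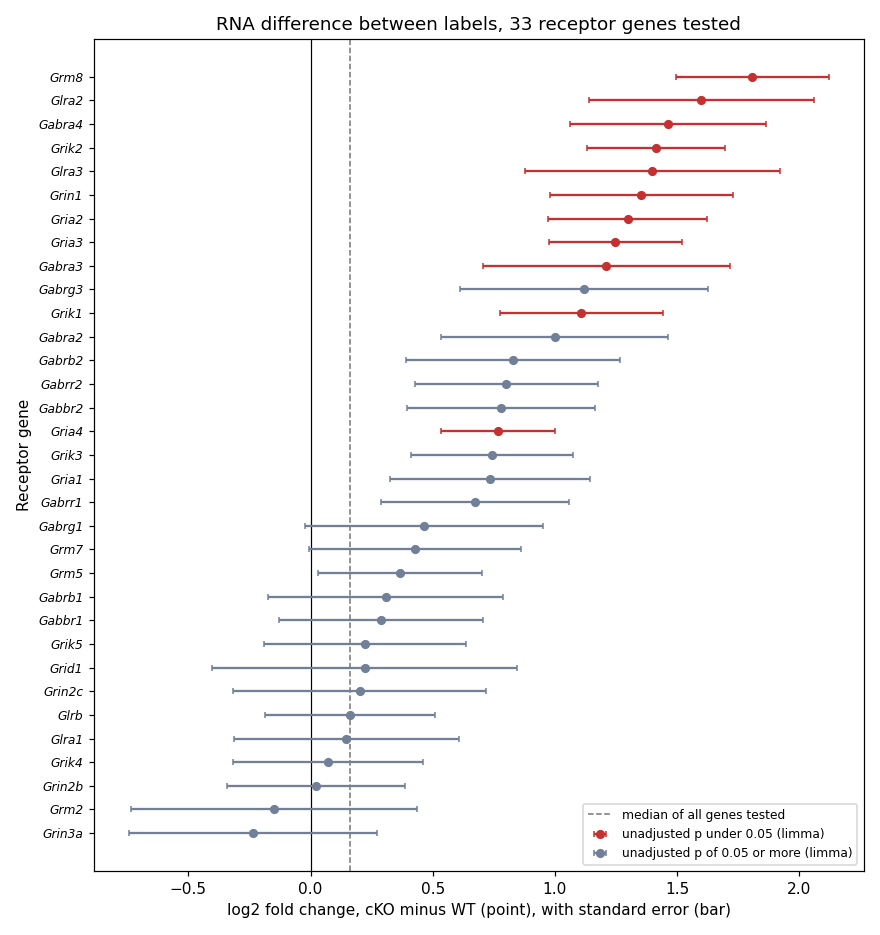
Log2 fold change of the 33 tested receptor genes on the log2(TPM + 1) scale, cKO minus WT (points), with the standard error from limma (bars). Red points mark the 11 genes at an unadjusted p under 0.05, all to the right of 0, and the dashed line at 0.16 is the median of all genes tested.

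The AMPA receptor genes were above 0 in log2 fold change in 4 of 4 cases (beside 61.1% of all genes), with 3 at an unadjusted p under 0.05 (beside 11.9%). *Gria2*, whose edited product keeps calcium out of the channel, had 41.3, 36.2 and 30.7 TPM in WT replicates 1, 2 and 3 and 120, 107 and 55.8 TPM in the cKO replicates. The lowest cKO library lay above the highest WT library, and the log2 fold change was 1.30 ± 0.33 (SE, limma adjusted p = 0.138). *Gria3* had 15.9, 13.2 and 11.7 TPM in WT and 37.6, 39.7 and 24.9 TPM in cKO, a log2 fold change of 1.25 ± 0.27 (SE, limma adjusted p = 0.124). *Gria4* had 33.5, 33.5 and 35.6 TPM in WT and 61.4, 71.9 and 46.1 TPM in cKO. Its WT libraries were the closest together of the family, the groups did not overlap, and the log2 fold change was 0.77 ± 0.23 (SE, limma adjusted p = 0.170). In *Gria1*, cKO replicate 3 (10.7 TPM) fell within the WT range of 10.0 to 14.4 TPM, while the other 2 cKO libraries stood at 31.5 and 22.3 TPM.

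The 4 AMPA subunit genes together gave 101, 97.3 and 88.0 TPM in WT and 250, 241 and 138 TPM in cKO, without overlap. Within that sum *Gria2* and *Gria4* were the main components. *Gria2* made up 37.7% ± 2.98 (SD, n = 3) in WT and 44.3% ± 3.64 in cKO, and cKO replicate 3 (40.6%) lay just below WT replicate 1 (40.8%). *Gria4* made up 36.0% ± 3.89 in WT and 29.3% ± 4.52 in cKO, also with overlap. Both shares overlapped between the labels, while the total of the family did not.

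*Grin1*, the subunit that every NMDA receptor needs, had 13.4, 22.9 and 8.02 TPM in WT and 34.8, 41.9 and 32.7 TPM in cKO. The groups did not overlap, with a log2 fold change of 1.35 ± 0.38 (SE, limma adjusted p = 0.151). The partner subunits of *Grin1* were all low. *Grin2b*, which binds glutamate and slows the channel's closing, had 3.99 ± 1.69 TPM (SD, n = 3) in WT and 4.02 ± 1.31 TPM in cKO, a log2 fold change of 0.02 that became -0.11 after scaling by the median of ratios. *Grin2c* (log2 fold change 0.20) and *Grin3a*, an atypical subunit that binds glycine (-0.23), had group means under 3 TPM and overlapping groups. *Grin2a* and *Grin2d* were not tested. *Grin2a* stood between 0.494 and 1.71 TPM in cKO and between 0 and 0.488 TPM in WT, and *Grin2d* between 0.123 and 2.04 TPM in all 6 libraries.

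*Grin1* RNA thus exceeded the summed RNA of its 4 GluN2 partners in every library. The ratio of *Grin1* to *Grin2a*, *Grin2b*, *Grin2c* and *Grin2d* together was 2.51, 3.45 and 1.21 in WT and 3.62, 7.75 and 6.12 in cKO. The lowest cKO ratio lay just above the highest WT ratio. Of the summed TPM of the 6 NMDA receptor genes, *Grin1* held 61.1% ± 8.40 (SD, n = 3) in WT and 81.0% ± 5.61 in cKO, with no overlap between the labels.

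**Figure D3:**
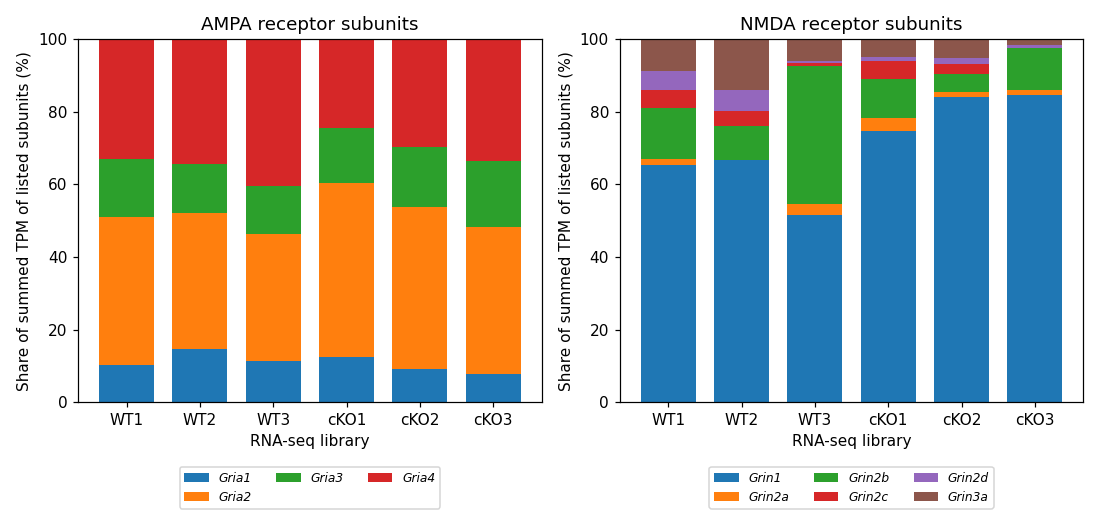
Share of each subunit gene in the summed TPM of the 4 AMPA receptor genes (left) and of the 6 listed NMDA receptor genes (right), in percent, for each RNA-seq library. *Gria2* and *Gria4* fill most of each AMPA bar, and the *Grin1* part of the NMDA bars runs from 51.5% to 66.7% in WT and from 74.5% to 84.6% in cKO.

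Among the kainate receptor genes, *Grik1* had the highest level of all 5 in each library. *Grik1* encodes the GluK1 subunit and is known as a marker of OFF bipolar cells. It had 83.1, 94.5 and 91.2 TPM in WT and 277, 227 and 116 TPM in cKO, so that the groups did not overlap although cKO replicate 3 lay close to WT. The log2 fold change was 1.11 ± 0.33 (SE, limma adjusted p = 0.169). *Grik2*, encoding GluK2, had 11.3, 9.38 and 6.32 TPM in WT and 24.9, 28.2 and 22.3 TPM in cKO. It kept the groups clearly apart, with a log2 fold change of 1.41 ± 0.28 (SE, limma adjusted p = 0.124). *Grik1* made up 84.0% ± 0.643 (SD, n = 3) of the family's RNA in WT and 84.0% ± 6.63 in cKO. *Grik3* was low (0.636 to 1.28 TPM in WT and 1.74 to 3.74 TPM in cKO) and did not overlap between labels, though its unadjusted p was 0.0590 from limma.

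The high-affinity kainate subunits, which form channels only together with the others, did not follow. *Grik4* had 2.55, 3.18 and 6.67 TPM in WT and 3.61, 3.21 and 5.79 TPM in cKO, with a log2 fold change of 0.07 that became -0.061 after scaling by the median of ratios. *Grik5* had 1.29 to 5.17 TPM in WT and 2.48 to 3.70 TPM in cKO. For both the cKO range lay inside the WT range. *Grid1*, an orphan relative of these receptors found at synapses, had 1.52, 3.98 and 0.473 TPM in WT and 2.21, 4.95 and 0.531 TPM in cKO, and differed more among the replicates of a label than between the labels.

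Of the metabotropic glutamate receptors, *Grm8* stood out. It encodes a presynaptic group III receptor that dampens glutamate release. It had 28.3, 14.9 and 13.5 TPM in WT and 71.5, 62.7 and 61.6 TPM in cKO. Its log2 fold change of 1.81 ± 0.31 (SE, limma adjusted p = 0.124) was the largest of the 33 tested genes, with a range of 1.62 to 2.13 over the fits that omit a library. *Grm7*, its close relative at presynaptic terminals, had 15.7, 42.8 and 26.5 TPM in WT and 55.7, 26.4 and 30.4 TPM in cKO. These groups overlapped widely, with a log2 fold change of 0.43 ± 0.43 (SE). *Grm4* was not tested, with 0.414 to 1.35 TPM over the 6 libraries.

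*Grm5*, the group I receptor that raises intracellular calcium, had 15.2, 22.1 and 15.9 TPM in WT and 32.5, 24.4 and 15 TPM in cKO, with a log2 fold change of 0.37 ± 0.33 (SE). *Grm2*, a group II autoreceptor, had 1.52, 10.4 and 4.57 TPM in WT and 6.52, 3.35 and 2.58 TPM in cKO. Its log2 fold change of -0.15 ± 0.58 (SE) was among only 2 below 0 in the 33 genes, and it turned to 0.38 without WT replicate 2, whose 10.4 TPM was the highest value, and to 0.075 without cKO replicate 3. *Grm3*, the other group II receptor, was not tested, with 0.228 to 2.59 TPM.

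GABA receptor genes had log2 fold changes above 0 in 11 of 11 cases (beside 61.1% of all genes), with 2 at an unadjusted p under 0.05, a share near the 11.9% of all genes. *Gabra4*, an alpha subunit, had 11.2, 3.40 and 5.81 TPM in WT and 18.7, 21.5 and 16.3 TPM in cKO. The groups did not overlap, with a log2 fold change of 1.46 ± 0.40 (SE, limma adjusted p = 0.150). *Gabra3*, the alpha subunit with the most RNA here, had 17, 11.1 and 13.0 TPM in WT and 53.9, 45.2 and 13.9 TPM in cKO. Its log2 fold change was 1.21 ± 0.50 (SE, limma adjusted p = 0.264), and cKO replicate 3 lay within the WT range. *Gabra2* had the same order of cKO libraries, with 45.0, 28.2 and 11.7 TPM against 10.3 to 13.5 TPM in WT.

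The beta and gamma subunits, which complete the pentamer and carry part of the benzodiazepine site in the case of gamma, were lower in level. *Gabrg3* had 8.46, 8.74 and 2 TPM in WT and 14.3, 16.5 and 9.63 TPM in cKO. The groups did not overlap, at a log2 fold change of 1.12 ± 0.51 (SE) and an unadjusted p of 0.0629 from limma. *Gabrb1* had 4.82, 5.73 and 2.46 TPM in WT and 7.88, 7.68 and 2.33 TPM in cKO, with cKO replicate 3 the lowest of the 6. *Gabrb2* and *Gabrg1* had means of 3.99 and 1.17 TPM in WT and 8.12 and 2.33 TPM in cKO, with overlap in both.

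*Gabrr1* and *Gabrr2* encode the rho subunits, which form slow GABA channels known from bipolar cell terminals. *Gabrr2* had 104, 112 and 71.6 TPM in WT and 192, 242 and 96.9 TPM in cKO, with cKO replicate 3 below WT replicates 1 and 2. *Gabrr1* had 30.2 to 62.1 TPM in WT and 41.5 to 88.7 TPM in cKO. The rho genes summed to more RNA than the 7 other listed GABA-A subunit genes in each library, at 140, 175 and 102 TPM against 61.2, 42.2 and 41.6 TPM in WT and at 281, 317 and 138 TPM against 155, 131 and 58.4 TPM in cKO. The GABA-B receptor needs both of its subunits. *Gabbr1* had 18.0, 34.6 and 12.5 TPM in WT and 33, 25.6 and 17.4 TPM in cKO, all 3 below WT replicate 2, and *Gabbr2* had means of 3.04 ± 1.51 TPM (SD, n = 3) in WT and 5.67 ± 1.39 TPM in cKO.

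Glycine receptor genes had log2 fold changes above 0 in 4 of 4 cases (beside 61.1% of all genes), with 2 alpha subunits at an unadjusted p under 0.05 (beside 11.9%). *Glra2* had 12.2, 8.21 and 3.79 TPM in WT and 28.7, 32.6 and 15.2 TPM in cKO, without overlap, and its log2 fold change of 1.60 ± 0.46 (SE, limma adjusted p = 0.157) followed that of *Grm8*. *Glra3* had 8.47, 4.55 and 6.04 TPM in WT and 32.3, 22.6 and 7.65 TPM in cKO. In cKO replicate 3 it fell back into the WT range, and the log2 fold change was 1.4 ± 0.52 (SE, limma adjusted p = 0.225). *Glra1*, the adult spinal form, had group means of 1.95 and 2.24 TPM. *Glrb*, which anchors the receptor to gephyrin at the synapse, had 110, 244 and 106 TPM in WT and 164, 176 and 140 TPM in cKO. WT replicate 2 held the highest value of the 6, and the log2 fold change of 0.16 ± 0.35 (SE) became -0.0078 after scaling by the median of ratios.

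Exact two-sided permutation tests gave p = 0.1 for each member without overlap, which is the smallest p that 3 libraries against 3 can give. The labels do not say that replicates came from separate animals, so p-values measure the spread between these samples.

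Genes that work with the receptors were listed too: 61 genes for auxiliary subunits, scaffolds, transporters and synthesis, of which 54 were tested. Of these, 42 had a log2 fold change above 0 (beside 61.1% of all genes) and 12 below, with a median of 0.39. None was called at an adjusted p under 0.05, and 14 were higher (beside 11.9%) and 0 lower (beside 6.45%) at an unadjusted p under 0.05 from limma. After scaling by the median of ratios, 39 of the 54 were above 0 (beside 50.8%) and 12 higher at that level (beside 7.62%), with a median of 0.24. Of 11 tested auxiliary subunit genes 2 were higher at that level, a share near that of all genes. They are *Cacng3*, with 28.6 ± 9.87 TPM (SD, n = 3) in WT and 80.8 ± 29.8 TPM in cKO, and *Cacng5*, with 11.3 ± 3.48 and 33.9 ± 13.1 TPM, both relatives of the protein that carries AMPA receptors to the membrane. *Shisa9* and *Cacng8* had the lowest p among those below 0, at -0.48 and -0.34 with overlapping groups. Of 25 scaffold genes 6 were higher, led by *Grip1*, which binds AMPA receptor tails (18.0 ± 3.75 TPM in WT and 36.8 ± 7.11 TPM in cKO), and *Dlg2*, encoding PSD-93 (64.8 ± 6.56 and 136 ± 39.6 TPM). *Homer3* and *Kctd12* had log2 fold changes of -0.68 and -0.39, also with overlap.

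Of 8 tested genes of glutamate transport 3 were higher, among them *Slc1a7*, a glutamate transporter of photoreceptors and bipolar cells, with 14 ± 1.33 TPM (SD, n = 3) in WT and 32.5 ± 4.97 TPM in cKO, and the neuronal transporter *Slc1a1*, with 25 ± 4.89 and 58.5 ± 13.9 TPM. *Slc17a8* and the glial enzyme gene *Glul* had log2 fold changes of -0.69 and -0.44, with overlapping groups. Of 10 tested genes of GABA and glycine handling 3 were higher. *Slc6a9*, the glycine transporter of amacrine cells, had 155 ± 86.8 TPM in WT and 571 ± 152 TPM in cKO, a log2 fold change of 1.99 ± 0.42 (SE, limma adjusted p = 0.124), and *Slc6a5*, the other glycine transporter, had 3.10 ± 1.06 and 10.2 ± 0.689 TPM. *Slc6a11* was the sole gene of that list below 0, at -0.03.

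Of the neurons that carry these receptors, bipolar and amacrine cells had markers mostly above 0. RGC markers were divided, with 7 of 11 tested above 0 (beside 61.1% of all genes), and the horizontal cell markers tested went in both directions. All 13 bipolar markers had log2 fold changes above 0 (beside 61.1% of all genes), with a median of 0.40. At an unadjusted p under 0.05 from limma were 2, *Otx2* and *Grik1*, the latter itself a receptor gene. A count of 2 of 13 is near the 11.9% of all genes, and after scaling by the median of ratios 11 of the 13 were above 0, with a median of 0.23, as *Vsx1* (-0.054) and *Grm6* (-0.078) turned below 0. Their sum was 1163 to 1577 TPM in WT and 1458 to 2413 TPM in cKO. *Grm6*, the ON bipolar receptor for glutamate, had 78.5 ± 29.8 TPM (SD, n = 3) in WT and 79.9 ± 6.81 TPM in cKO. Of 11 tested amacrine markers 10 were above 0 (beside 61.1%). At an unadjusted p under 0.05 from limma 4 were higher (beside 11.9%), led by *Slc6a9* and *Pax6*. The median of the amacrine list was 0.81, and the sum was 506 to 717 TPM in WT and 1025 to 1937 TPM in cKO. The amacrine marker *Tfap2a* had -0.56, with overlap. None of the listed amacrine or bipolar markers was at 0 in all libraries.

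Photoreceptor RNA differed by more, and glial and immune RNA in the other direction. Of 9 cone markers 7 were higher at an unadjusted p under 0.05 from limma, *Arr3* and *Opn1mw* first. Over all genes tested, 11.9% were higher and 6.45% lower at that level. The cone median was 0.97, with sums of 2021 to 2530 TPM in WT and 3552 to 6185 TPM in cKO. The rod list had 14 of 14 at that level and a median of 1.34, with *Pde6b* and *Pde6g* first. All 12 Mueller glia and astrocyte markers were below 0 (median -0.61, 3 at that level, *Gfap* and *Vim* first), as were 12 of 12 T cell markers (median -2.04, 11 at that level, *Cd3e* and *Il7r* first) and 11 of 12 myeloid markers (median -0.74, 5 at that level, *Aif1* and *Cd68* first, *P2ry12* above 0). Glial sums overlapped between the labels, at 14315 to 26768 TPM in WT and 10551 to 25246 TPM in cKO, and did so through cKO replicate 3 alone, since the other cKO libraries had 10551 and 11165 TPM. T cell sums were 994 to 2946 TPM in WT and 254 to 626 TPM in cKO, and myeloid sums 1329 to 2462 and 736 to 968 TPM. The RGC list had a median of 0.03, with *Tubb3* (1.01) and *Ebf3* (1.36) of lowest p above 0 and *Sncg* (-0.83) and *Gap43* (-0.45) below 0. Of 8 tested endothelial and pericyte markers 6 were below 0 (*Cldn5* and *Rgs5* first, against *Esam* and *Vtn*), and of 6 horizontal cell markers only *Calb1* and *Tpm3* could be tested, at 1.06 and -0.83. With median-of-ratios scaling, list medians were 1.17 for rods, 0.80 for cones, 0.66 for amacrine cells, -0.03 for RGCs (4 of 11 above 0), -0.79 for Mueller glia and astrocytes, -2.20 for T cells, -0.91 for myeloid cells (with *P2ry12* at -0.066) and -0.57 for endothelial cells and pericytes. What these cell type differences contribute to the receptor values was not tested.

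**Figure D4:**
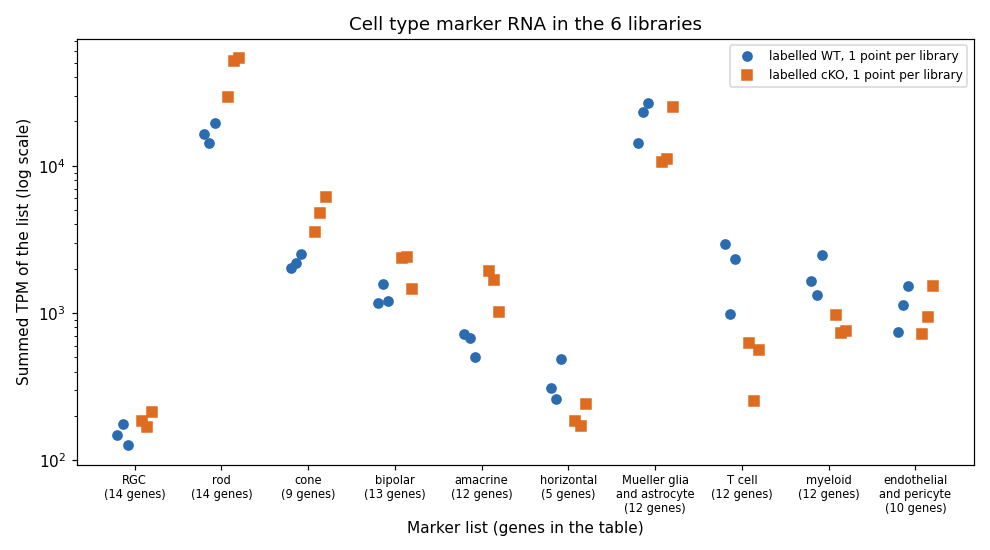
Summed TPM of each cell type marker list (log scale) in the 3 libraries labelled WT (circles) and the 3 labelled cKO (squares). The rod, cone and amacrine sums are higher in every cKO library than in any WT library, the T cell and myeloid sums are lower, and the RGC sums stay under 212 TPM in all 6.

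The ATAC-seq comparison, which marks DNA open to a transposase, gives for each region the authors' group value, the log2 of the mean normalized reads, with no value per library and hence no spread. Of the 37 receptor genes, 12 (32.4%) had a region within 1000 bp of an end, beside 37.2% of 21900 protein-coding genes. *Gabbr1* has 2 of these regions, and *Gabra4* and *Gabrb1* share 1. In 10 of the 12 the cKO level was at least 1 log2 unit below the WT level, beside 92.1% of the 7171 regions at ends of protein-coding genes and 59.8% of all regions. Of the 12, 10 have a peak in both WT libraries, and 6 of these 10 have none in a cKO library, so that they stand in the comparison through the group where they are high and a lower cKO level is no finding about these genes. Among those 10, 9 were lower by at least 1 log2 unit (beside 97% of the 6747 regions at gene ends with a peak in both WT libraries) and 2 by at least 2 (beside 75.1%), with a median difference of -1.64 (beside -2.63). A difference of at least 2 log2 units was found in 2 of the 12, *Grm7* and *Grm8*, beside 70.7% of regions at gene ends. The median difference was -1.58 for the 12 regions and -2.56 for all regions at gene ends, and the median WT level was 4.29 and 5.04 respectively.

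**Figure D5:**
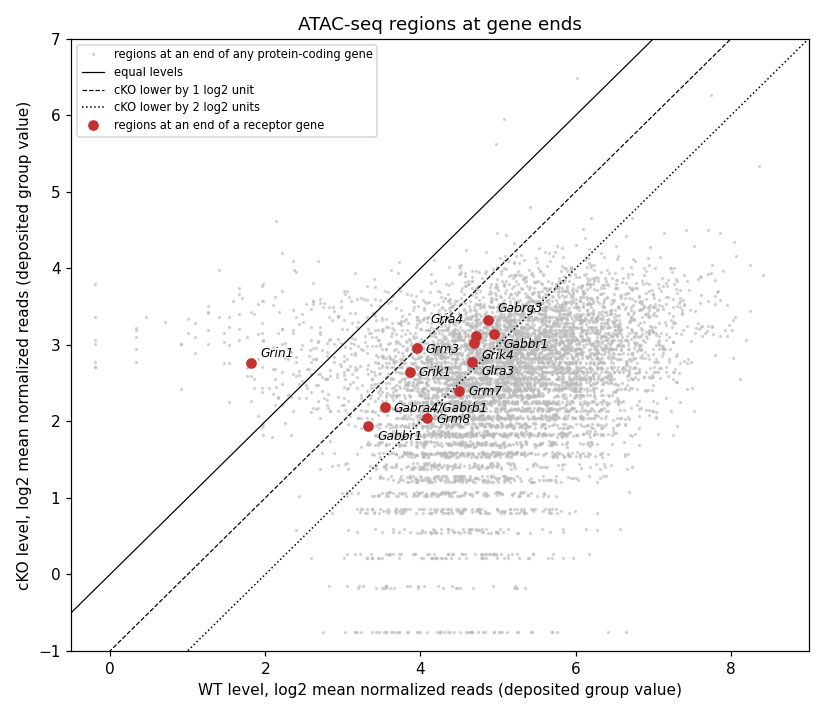
WT level (horizontal) and cKO level (vertical) of ATAC-seq regions, each as the deposited log2 mean normalized reads of a group, for the 12 regions at receptor gene ends (red, named) and the 7171 at ends of any protein-coding gene (grey). Lines mark equal levels and a cKO level lower by 1 and 2 log2 units. Of the red points, *Grin1* alone lies above the line of equal levels, and *Grm7* and *Grm8* reach the lowest line.

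The region at the *Grm7* start, on chromosome 6 of GRCm38 from 110645166 to 110645945, had a level of 4.5 in WT and 2.4 in cKO. The *Grm8* region, from 28135435 to 28136112 on the same chromosome, lies 289 bp upstream of the gene's start and had levels of 4.09 and 2.04. These were the largest differences of the 12 regions. RNA of both genes had a log2 fold change above 0, as did that of all 11 tested receptor genes with a region. Of these genes *Grin1* alone had a region with a higher level in cKO, so a lower region beside higher RNA was not particular to *Grm8* or *Grm7*. The *Glra3* region (chromosome 8, 55940253 to 55941121) had levels of 4.67 and 2.77, and the *Gria4* region (chromosome 9, 4795613 to 4796578) had 4.72 and 3.11. Both span the start of their gene.

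Levels in the other regions followed the same direction with 1 exception. *Gabbr1* had a region across its start (chromosome 17, 37045899 to 37046605) at 4.95 in WT and 3.14 in cKO and a second just upstream at 3.33 and 1.94. *Grik4* (chromosome 9, 42944102 to 42944970) had levels of 4.69 and 3.02, *Gabrg3* (chromosome 7, 57386265 to 57387283) had 4.87 and 3.33, and *Grik1* (chromosome 16, 88289863 to 88290727) had 3.86 and 2.65. *Grm3*, whose RNA was too low to test, had 3.95 and 2.96 across its start. The exception is *Grin1*, where a region 972 bp beyond the far end of the gene (chromosome 2, 25289911 to 25290205) had the lowest WT level of the 12, 1.82, and a cKO level of 2.76.

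*Gabra4* and *Gabrb1* point away from each other on chromosome 5 and share a single region, from 71657831 to 71658357, that covers both starts, with levels of 3.54 in WT and 2.19 in cKO. They belong to a cluster with *Gabrg1* and *Gabra2* between 70751047 and 72149572. The RefSeq records of *Gabra4* and *Gabrb1* overlap by 388 bp, and whether the counting used strand is not given in the sources used here, so reads from that stretch cannot be assigned with certainty. The neighbours differed in RNA, with a log2 fold change of 1.46 for *Gabra4* and 0.31 for *Gabrb1*. Of the 11 tested receptor genes with a region at an end, 11 had a log2 fold change above 0, with a median of 1.11, and of the 22 without, 20 did, with a median of 0.70. With 1 group value per region, no test joins these RNA and ATAC-seq values.

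Peaks called in each library give a view of the replicates. In all, 76522 and 42265 peaks were called in WT replicates 1 and 2, and 55902 and 68317 in cKO replicates 1 and 2. At an end of a receptor gene, WT replicate 1 had a peak in 19 of the 37 genes, WT replicate 2 in 18, cKO replicate 1 in 5 and cKO replicate 2 in 5. Among all protein-coding genes the shares were 49.3%, 42.8%, 12.4% and 12.8% in the same order, against 51.4%, 48.6%, 13.5% and 13.5% for the receptor genes. Both WT libraries had a peak at 13 of the 37, and 11 had none in any library, among them *Gria1*, *Gria2*, *Glrb* and *Gabrr2*, which are among the higher in RNA. The window of 1000 bp is set at the ends of the gene record, and the RefSeq promoters of *Gria2* and *Gabrr2* lie outside it. That of *Glrb* lies inside it, and none was at hand for *Gria1*. A lack of peaks at an end thus does not show a closed promoter. *Gabrg3* was the sole gene with a peak at an end in both cKO libraries.

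The promoters below are those of the 6 genes whose regions differed most between the labels, and of *Gabra4* and *Gabrb1*, which share a region. Each runs from 250 bases before to 50 bases after a transcript start, 5′ to 3′ on the strand of the gene, from RefSeq on GRCm38.p6. Capitals mark GGGCGG or its reverse complement CCGCCC, the core of the GC box that Sp1 and related factors bind.
Gabra4 promoter, chr5:71658259-71658558, minus strand: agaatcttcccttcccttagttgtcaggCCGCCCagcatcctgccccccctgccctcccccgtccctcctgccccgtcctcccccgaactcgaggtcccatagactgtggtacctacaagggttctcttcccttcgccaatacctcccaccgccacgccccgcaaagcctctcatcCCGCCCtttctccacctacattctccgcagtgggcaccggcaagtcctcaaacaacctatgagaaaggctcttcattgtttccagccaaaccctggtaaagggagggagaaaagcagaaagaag
Gabrb1 promoter, chr5:71657671-71657970, plus strand: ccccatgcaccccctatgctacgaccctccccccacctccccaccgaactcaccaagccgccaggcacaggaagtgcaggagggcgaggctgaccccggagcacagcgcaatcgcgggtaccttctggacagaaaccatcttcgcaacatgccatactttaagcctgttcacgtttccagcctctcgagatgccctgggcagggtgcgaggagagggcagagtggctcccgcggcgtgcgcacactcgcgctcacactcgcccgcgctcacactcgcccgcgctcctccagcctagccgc
Grm7 promoter, chr6:110645262-110645561, plus strand: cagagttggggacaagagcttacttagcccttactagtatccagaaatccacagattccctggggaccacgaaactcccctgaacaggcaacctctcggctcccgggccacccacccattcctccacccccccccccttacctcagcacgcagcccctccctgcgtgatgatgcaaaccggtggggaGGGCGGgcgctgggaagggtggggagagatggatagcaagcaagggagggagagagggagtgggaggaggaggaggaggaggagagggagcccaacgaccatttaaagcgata
Grm8 promoter, chr6:28135097-28135396, minus strand: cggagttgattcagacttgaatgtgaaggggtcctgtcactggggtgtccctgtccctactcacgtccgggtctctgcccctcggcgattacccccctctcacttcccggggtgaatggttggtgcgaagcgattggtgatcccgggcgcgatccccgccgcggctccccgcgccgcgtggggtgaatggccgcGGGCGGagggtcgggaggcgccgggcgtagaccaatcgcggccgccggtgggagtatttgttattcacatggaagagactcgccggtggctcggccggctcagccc
Glra3 promoter, chr8:55940168-55940467, plus strand: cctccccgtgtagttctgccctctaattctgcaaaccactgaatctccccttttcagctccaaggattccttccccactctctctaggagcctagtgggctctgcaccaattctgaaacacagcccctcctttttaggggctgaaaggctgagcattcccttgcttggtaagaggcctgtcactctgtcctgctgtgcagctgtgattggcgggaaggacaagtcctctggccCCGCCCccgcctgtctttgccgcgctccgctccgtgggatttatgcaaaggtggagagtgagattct
Gabbr1 promoter, chr17:37045716-37046015, plus strand: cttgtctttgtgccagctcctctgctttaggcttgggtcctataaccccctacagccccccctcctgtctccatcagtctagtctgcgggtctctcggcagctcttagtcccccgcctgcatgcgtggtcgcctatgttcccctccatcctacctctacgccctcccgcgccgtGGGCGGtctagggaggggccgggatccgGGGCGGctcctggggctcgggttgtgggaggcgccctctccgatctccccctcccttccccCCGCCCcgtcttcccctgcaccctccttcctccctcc
Grik4 promoter, chr9:42944322-42944621, minus strand: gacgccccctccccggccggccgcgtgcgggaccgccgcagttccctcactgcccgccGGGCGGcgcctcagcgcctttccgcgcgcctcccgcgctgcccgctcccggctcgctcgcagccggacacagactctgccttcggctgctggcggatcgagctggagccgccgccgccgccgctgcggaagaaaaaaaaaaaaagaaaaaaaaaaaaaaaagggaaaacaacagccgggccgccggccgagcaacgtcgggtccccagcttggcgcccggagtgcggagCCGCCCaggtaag
Gria4 promoter, chr9:4796185-4796484, minus strand: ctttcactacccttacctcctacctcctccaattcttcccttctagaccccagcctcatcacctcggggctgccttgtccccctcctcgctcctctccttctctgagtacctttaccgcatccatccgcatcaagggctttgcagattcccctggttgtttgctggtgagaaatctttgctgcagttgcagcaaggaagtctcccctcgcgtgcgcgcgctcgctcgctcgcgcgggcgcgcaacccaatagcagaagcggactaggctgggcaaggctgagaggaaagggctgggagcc

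Of the printed windows, those of *Grm7*, *Grik4* and *Gria4* lie wholly inside their region, that of *Gabbr1* has 117 bases in the region across its start, that of *Glra3* has 215 bases in it, those of *Gabra4* and *Gabrb1* have 99 and 140 bases in their shared region, and that of *Grm8* ends 39 bp short of it. GC boxes were found in 6 of these 8 windows, with 3 in *Gabbr1*, 2 each in *Gabra4* and *Grik4* and 1 each in *Grm7*, *Grm8* and *Glra3*. RefSeq promoters were at hand for 27 of the 37 genes, 34 windows in all, and not for *Gria1*, *Gria3*, *Grin2a*, *Grin2b*, *Grin3a*, *Grik1*, *Grid1*, *Grm4*, *Grm5* and *Glra1*. A GC box on either strand was present in 20 of the 34 windows (58.8%), beside 35.7% of 32851 windows of the same length over all genes. It was present in 8 of the 10 windows that overlap a region. These 10 come from 9 genes, as *Grm7* enters with overlapping windows. No share was taken over all windows that overlap a region, so the 8 have no background. The receptor windows were also richer in CpG, with a median of 12.0 CpG dinucleotides against 7.0 over all windows, and 14 in the 10 that overlap a region. TAATCC, the core bound by the photoreceptor and bipolar cell factors OTX2 and CRX, was found in 2 of the 34 (5.88%), at *Gabra2* and *Gabrr2*, beside 7.06% of all windows. The CRE palindrome TGACGTCA was found in 0 of the 34, beside 1.79% of all windows. Such matches describe the letters alone.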

How the data were processed

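RNA-seq and ATAC-seq were measured in Thy1.2-sorted mouse retinal cells, with 3 RNA-seq and 2 ATAC-seq libraries per label. For the deposited TPM values, the authors trimmed reads with Trimmomatic, quantified them with Salmon 1.0.0 and summed to GENCODE genes with tximport, with no scaling between libraries. TPM keeps no depth, so no counting error can be given. The deposited ATAC-seq group levels are the log2 of mean normalized reads, made by the authors with Bowtie2 2.3.5.1 and DiffBind on GRCm38. The submitters' processing notes name MACS2 2.2.5. The peak lists, of which the authors deposited 1 per library, give positions alone. Columns of the authors' own comparisons (fold changes, p-values, FDR) and the RNA-seq table that holds nothing else were not used.

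Here log2(TPM + 1) was fitted over all 17555 genes with at least 1 TPM in at least 3 of 6 libraries, with limma 3.58.1 in R 4.3.3 (empirical Bayes with a trend), Benjamini-Hochberg adjustment and a threshold of 0.05. Fold changes on this scale understate the change of low genes. A gene end was either end of the RefSeq record on GRCm38.p6, with a window of 1000 bp. Starts of regions equal peak starts counted from 0 in all 16600 cases, and 1 was added to print them. Deviations from the group means were correlated between same-numbered libraries (r of 0.334, 0.101 and 0.425 across genes). Other pairings were not compared, so these values cannot show that the replicate numbers pair libraries. The block was run as an alternative. The labels do not tie numbers to animals. The fit and the overlap search were tested on simulated data. Python 3.11.15 was used for the rest. Values per library are given for the highest gene of each family, genes at an unadjusted p under 0.05 and tested genes with a region. Of each marker and partner list the 2 genes with the lowest p per direction are named, and other genes were named after their values were seen. Members, lists and motifs were chosen with earlier results of these data known.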

Additional observations from a re-analysis of the deposited data

How the results depend on the processing

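In none of the 12 alternatives for RNA (a pseudocount of 0.1, no filter, a mean TPM of at least 5, median-of-ratios scaling, the replicate block, no trend, and leaving out each of the 6 libraries) was a receptor or partner gene called at an adjusted p under 0.05 from limma. With the replicate block, which pairs same-numbered libraries, 15 receptor genes had an unadjusted p under 0.05 in place of 11, all 11 among them, and the lowest adjusted p was 0.0633. The block changed no call. With each library left out, the count of receptor genes at an unadjusted p under 0.05 from limma ranged from 8 to 17. The 17 came without cKO replicate 3, beside 13.5% of all genes. The count without overlap ranged from 11 to 22. The 22 came from the same fit, beside 29.4% of all genes, where the share with all libraries was 18.7%. The median log2 fold change ranged from 0.56 to 0.95. Shares over all genes were taken only without cKO replicate 3 and without WT replicate 2. For partner genes the count higher ranged from 9 (without cKO replicate 2) to 18 (without WT replicate 2, beside 11.7% of all genes). The count lower ranged from 0 to 1 (without WT replicate 1). Under the alternatives that keep all libraries, the receptor count at that level ranged from 9 (median-of-ratios scaling, beside 7.62% of all genes) to 15 (replicate block, beside 13.4%). The count without overlap ranged from 9 (median-of-ratios scaling, beside 12.5%) to 12 (no filter, for which no share over all genes was taken).

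Of 385 recomputed fold changes of single receptor genes, 24 changed sign, in 10 genes, none of them at an unadjusted p under 0.05. After median-of-ratios scaling these were *Grin2b* (-0.11), *Grik4* (-0.061) and *Glrb* (-0.0078). With libraries left out the log2 fold change ranged from -0.14 to 0.28 for *Grin2b*, from -0.15 to 0.40 for *Grik4*, from -0.047 to 0.55 for *Glrb*, from -0.11 to 0.61 for *Grik5*, from -0.59 to 0.20 for *Grin3a*, from -0.70 to 0.38 for *Grm2*, from -0.16 to 0.68 for *Grin2c*, from -0.25 to 0.73 for *Grid1*, from -0.027 to 0.67 for *Gabbr1* and from -0.15 to 0.49 for *Glra1*.

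For ATAC-seq, a limit of 2 log2 units left 2 regions in place of 10. Within 3000 bp of an end, cKO replicates 1 and 2 had peaks at 13 and 15 receptor genes (35.1% and 40.5%) in place of 5 and 5, and WT replicates 1 and 2 at 26 and 22 (70.3% and 59.5%) in place of 19 and 18. Over all protein-coding genes the shares at 3000 bp were 27.6% and 29.6% in cKO and 59.3% and 51.0% in WT. At that distance 15 genes had a region. No paired analysis was possible because ATAC-seq levels are group values. The cause of these differences was not tested. TPM keeps no depth, so the precision of low genes such as *Grin2a* or *Grm4* is unknown.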

Other observations

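Beyond the gene ends, 31 regions of the ATAC-seq comparison lay inside 16 of the receptor genes. Their cKO level was above the WT level in 12 (38.7%), beside 33.6% of 4720 such regions in all protein-coding genes, and at least 1 log2 unit lower in 10 (32.3%), beside 40.6%. The median difference was -0.31, against -0.56 for all such regions. The regions with the largest excess under cKO lie in *Gabrg3* (chromosome 7 of GRCm38, 57089757 to 57090125, from -0.19 to 3.20 on the log2 scale), *Grm7* (chromosome 6, 111315621 to 111316089, from -0.19 to 3) and *Gabbr2* (chromosome 4, 46839570 to 46840213, from 1.4 to 3.71), where cKO replicates 1 and 2 each had a peak and the WT replicates none. The regions with the largest deficit lie in *Grm3* (chromosome 5, 9702280 to 9703051, from 4.03 to -0.18) and *Grik4* (chromosome 9, 42534578 to 42534881, from 2.47 to -0.75), where WT replicates 1 and 2 each had a peak and the cKO replicates none. Over all 16600 regions, -0.19 is the lowest WT level and -0.75 the lowest cKO level. The size of the differences that use them thus depends on values at the bottom of the scale. The regions named here are in the comparison through the group where they are high, so their direction follows from how regions enter it and is a description. These regions were named after their values were seen, and no value per library is given for them.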
